A study of Mus musculus with 8 samples.

Results

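The axoneme is the microtubule core of the sperm flagellum, a ring of doublet microtubules around a central pair. Rows of dynein motors sit on each doublet as outer and inner arms, and the arms slide one doublet along the next to bend the tail. Radial spokes and the central apparatus relay the signals that time the arms, the nexin-dynein regulatory complex links neighbouring doublets, and proteins inside the doublet wall hold the microtubules together. In the male germ line the mRNAs of many of these proteins first become abundant in pachytene spermatocytes, well before a flagellum is built in spermatids.

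Messenger RNA of these genes was compared in pachytene spermatocytes of *Arid1a* WT and *Arid1a* cKO mice. ARID1A is a subunit of the BAF class of SWI/SNF chromatin remodellers, and the study asks what its loss does in meiotic prophase. The genes were taken by name: every gene of the count table whose mouse symbol begins with *Cfap*, *Dnah*, *Dnaaf*, *Rsph*, *Tekt* or *Drc* followed by a digit. The rule found 70 of the 21058 genes, namely 34 *Cfap*, 14 *Dnah*, 7 *Dnaaf*, 7 *Rsph*, 5 *Tekt* and 3 *Drc* genes. The rule uses names and no measured value. The sort into roles used here follows the known place of each protein, and a further 10 *Cfap* genes without a settled place were kept as a group of their own.

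Both genotypes were males older than 60 days, bred from a floxed *Arid1a* line on a CD1 background. *Arid1a* WT males carried floxed *Arid1a*, as *Arid1a* fl/fl or *Arid1a* fl/+, and had no Cre. The knockout was conditional: *Arid1a* cKO males had both alleles floxed (*Arid1a* fl/fl) together with the transgene *Stra8-Cre* Tg/0, whose promoter drives Cre in spermatogonia. Excision by this Cre is known to be incomplete, so that some spermatocytes of these males still make ARID1A. Cells were purified by Sta-Put, which sorts dissociated testis cells by their sedimentation at unit gravity, and testes of at least 12 males were pooled for each purification. The 4 libraries of each genotype are labelled as biological replicates, but the sources used here do not tie each library to a purification or animals of its own. P-values and standard errors therefore measure only the spread between these libraries, which may be technical. Depth was 18308688 to 22044507 estimated counts in *Arid1a* WT and 15850961 to 21626772 in *Arid1a* cKO.

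*Arid1a* itself was at 105, 129, 121 and 98.8 CPM (counts scaled to library size after its correction by TMM) in the *Arid1a* WT libraries and at 76.4, 81.0, 82.9 and 78.3 CPM in the *Arid1a* cKO libraries. The genotypes did not overlap, and the level fell by 0.51 ± 0.07 on the log2 scale (± SE, adjusted p = 2.31e-05; p = 0.0286 by exact permutation, two-sided, which is the lowest that 4 against 4 libraries can reach). *Arid1a* mRNA was lower but present in every library labelled cKO.

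Markers of other testis cell types were counted in the same way. Of all genes tested, 36.5% were called higher in *Arid1a* cKO, 37.5% lower and 74.0% in either direction, and each count below stands beside these shares. All 17 markers of round and elongating spermatids were higher in *Arid1a* cKO, by 1.79 to 2.38 log2 units, and their summed level went from 7403 to 8414 TPM (counts scaled for both transcript length and library size) in *Arid1a* WT to 30445 to 32221 TPM. Of 16 pachytene markers, 12 fell and 2 rose, with sums of 11562 to 12593 and 9203 to 9276 TPM. All 10 Sertoli cell markers fell (446 to 517 against 116 to 122 TPM), as did 7 of 8 Leydig cell markers (82.2 to 95.6 against 7.53 to 9.60 TPM). No marker of these 4 lists was at 0 in any library. Of 10 leptotene and zygotene markers 7 rose and 3 fell, of 12 spermatogonial markers 10 rose and 1 fell, of 9 macrophage and blood markers 6 rose and 1 fell (77.8% called, near the share of all genes), and of 9 tested epithelial markers 5 rose and 3 fell. In libraries made from bulk cells, a change in the share of a cell type and a change in RNA per cell cannot be told apart, and the part these markers have in the values that follow was not tested.

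All 70 axonemal genes passed the filter of at least 10 counts summed over the 8 libraries. With edgeR's quasi-likelihood test, adjusted by Benjamini-Hochberg over the 17643 genes tested, 62 of the 70 (88.6%) differed between genotypes at an adjusted p of 0.05 or less, beside 74.0% of all genes tested. Of the 62, 31 were higher in *Arid1a* cKO (44.3% of the 70, beside 36.5% of all genes) and 31 were lower (44.3%, beside 37.5%). In 59 genes (84.3%) no library of one genotype overlapped the other, beside 68.9% of all genes. The median log2 fold change was -0.01, beside -0.02 over all genes, and the median size of the change was 0.83, beside 0.76. A change of at least 1 log2 unit was found in 40.0% of the genes, 14 in each direction, beside 36.6% of all genes. Rises and falls were thus equal in number over the 70 genes. They were less even over the 61 genes that share 20% or less of their 31-base words with other genes, whose reads are less open to being divided between copies: 30 of these were higher (49.2%) and 23 lower (37.7%), with a median of 0.13.

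**Figure D1:**
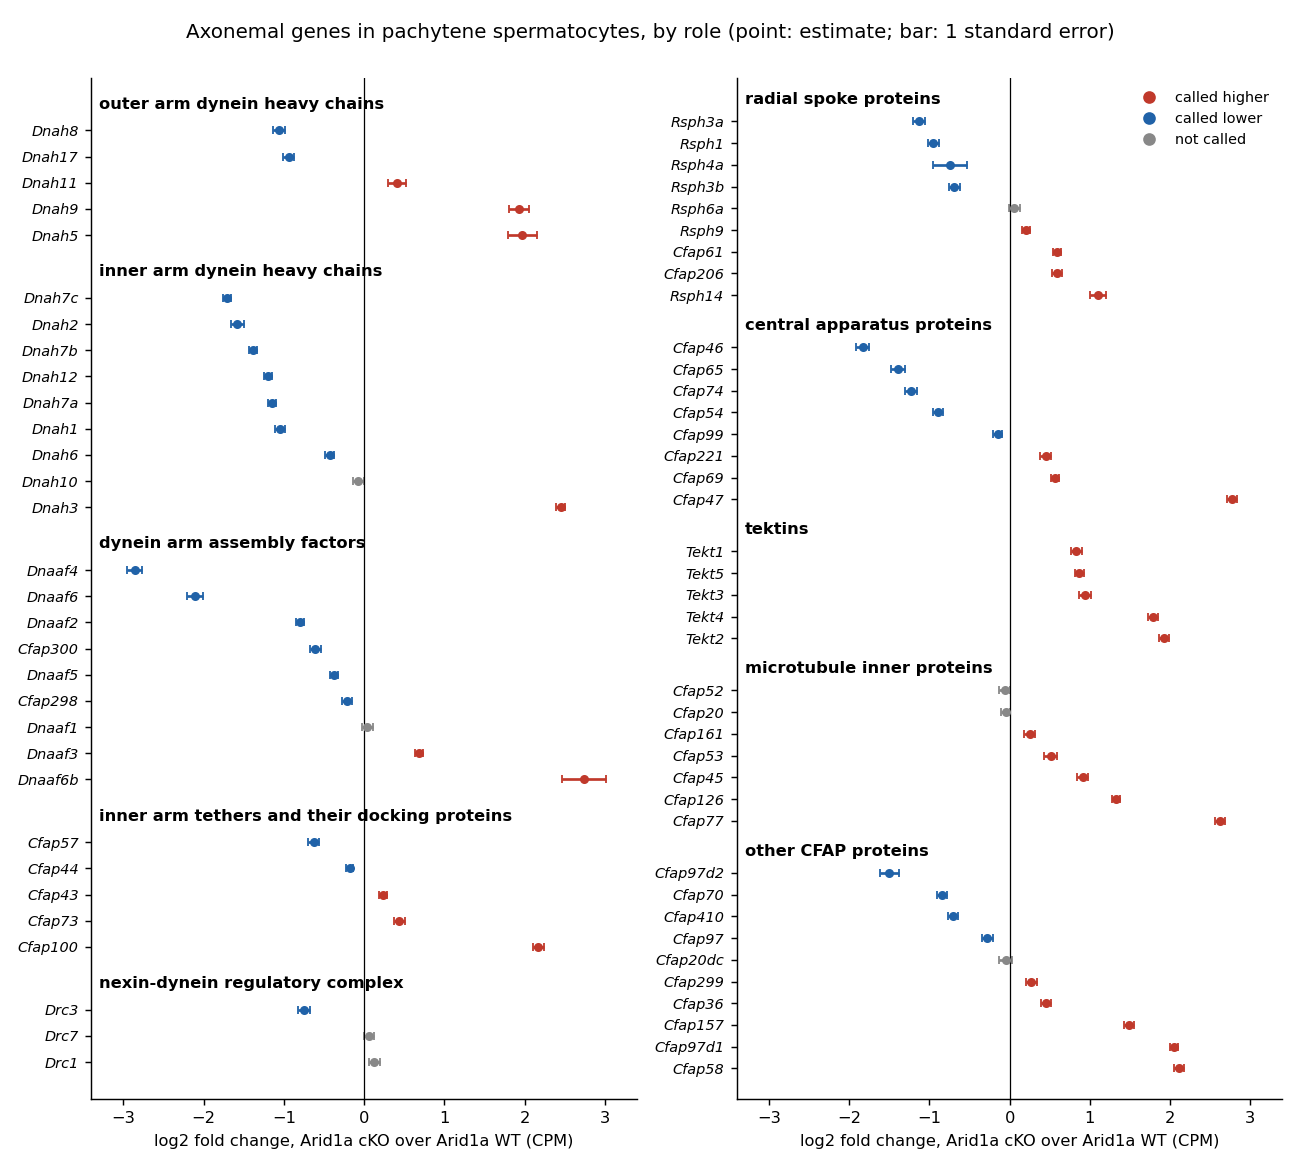
Log2 fold change of each of the 70 genes (horizontal axis, *Arid1a* cKO over *Arid1a* WT, from CPM), grouped by role, with points for the estimate and bars for 1 standard error. Most inner arm heavy chains lie left of 0 and all 5 tektins lie right of 0, while the assembly factors and central apparatus genes spread from below -1 to above 2.

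The dynein heavy chains are the motors themselves. Each outer arm of a mammalian flagellum holds a pair of different heavy chains, and sperm and airway cilia use different genes for them: DNAH8 and DNAH17 are the sperm forms, while DNAH5, DNAH9 and DNAH11 serve motile cilia elsewhere. *Dnah8*, at chr17:30626935-30875762 (GRCm38.p6), was the most abundant heavy chain mRNA at 805 ± 52.5 TPM (SD, n = 4) in *Arid1a* WT. Its level was 5483, 6461, 5786 and 6087 CPM in the *Arid1a* WT libraries and 2627, 2940, 2981 and 2897 CPM in the *Arid1a* cKO libraries. Every *Arid1a* cKO library lay below every *Arid1a* WT library, a fall of 1.06 ± 0.07 log2 units (adjusted p = 1.93e-09). *Dnah17*, its partner in the sperm outer arm, fell by 0.94 ± 0.07 log2 units (adjusted p = 7.13e-09), from 1384 ± 107 to 721 ± 44.8 CPM.

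The 3 heavy chains of other motile cilia were rare in both genotypes and moved the other way. *Dnah5* was at 1.98, 3.57, 3.06 and 1.68 CPM in *Arid1a* WT and at 11.2, 9.48, 9.67 and 10 CPM in *Arid1a* cKO, a rise of 1.97 ± 0.18 log2 units (adjusted p = 1.26e-07). *Dnah9* rose by 1.93 ± 0.12 (adjusted p = 1.65e-09), from 3.58 ± 0.67 to 13.6 ± 0.671 CPM. *Dnah11* rose by 0.41 ± 0.11 (adjusted p = 0.0045). No library of either genotype overlapped for these genes, but their levels stayed small beside the sperm forms. The ratio of *Dnah5* to *Dnah8* in TPM went from a mean of 0.000298 to 0.00297, and that of *Dnah9* to *Dnah17* from 0.00558 to 0.0502. The rise of *Dnah11* was not present per transcript length: its mean was 0.513 TPM in *Arid1a* WT and 0.517 TPM in *Arid1a* cKO, and with offsets for transcript length the change was 0.11 (adjusted p = 0.525).

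Of the 9 inner arm heavy chains, 7 fell (77.8%, beside 37.5% of all genes), 1 rose (11.1%, beside 36.5%) and 1 was not called. DNAH2 and DNAH10 form the double-headed inner arm, and the other chains form single-headed arms. *Dnah2* (chr11:69420807-69549108), the most abundant of the group at 102 ± 18.2 TPM, was at 556, 692, 672 and 551 CPM in *Arid1a* WT and at 194, 209, 214 and 212 CPM in *Arid1a* cKO. It fell by 1.58 ± 0.08 log2 units (adjusted p = 1.25e-10), and the genotypes were far apart. Its partner *Dnah10* was not called, at 229 ± 22.3 and 218 ± 15 CPM (log2 fold change -0.07 ± 0.07, adjusted p = 0.415), with overlapping libraries. With length offsets *Dnah10* was called lower at -0.33 (adjusted p = 0.00425).

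*Dnah7c* showed the largest fall in the group. Its level was 472, 503, 443 and 489.6 CPM in *Arid1a* WT and 147, 150.4, 143 and 142 CPM in *Arid1a* cKO, a change of -1.71 ± 0.05 (adjusted p = 6.77e-13). The adjoining copy *Dnah7b* and the more distant *Dnah7a*, both also on chromosome 1, fell by 1.38 ± 0.05 and 1.15 ± 0.05. These 3 genes share 40.1 to 61.6% of their 31-base words with other genes, mostly with each other, so reads could have been divided between them and the difference between the copies is uncertain. *Dnah12* fell by 1.20 ± 0.05, *Dnah1* by 1.05 ± 0.06 and *Dnah6* by 0.43 ± 0.06. In each of these genes all *Arid1a* cKO libraries lay below all *Arid1a* WT libraries.

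*Dnah3* (chr7:119921332-120095297), another single-headed inner arm motor, was the exception. It was at 69.7, 79.0, 82.4 and 74.3 CPM in *Arid1a* WT and at 395, 429, 442 and 406 CPM in *Arid1a* cKO, a rise of 2.45 ± 0.06 log2 units, or 5.47-fold (adjusted p = 1.13e-13). In TPM the order of *Dnah3* and *Dnah7b* turned: their ratio was 0.171 to 0.201 in the *Arid1a* WT libraries and 1.68 to 2.45 in the *Arid1a* cKO libraries. From the lowest of the 9 inner arm chains by mean TPM, *Dnah3* became the highest, at 66.0 ± 4.93 TPM beside 33.8 ± 3.66 TPM for *Dnah7b* and 32.5 ± 2.48 TPM for *Dnah2*.

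**Figure D2:**
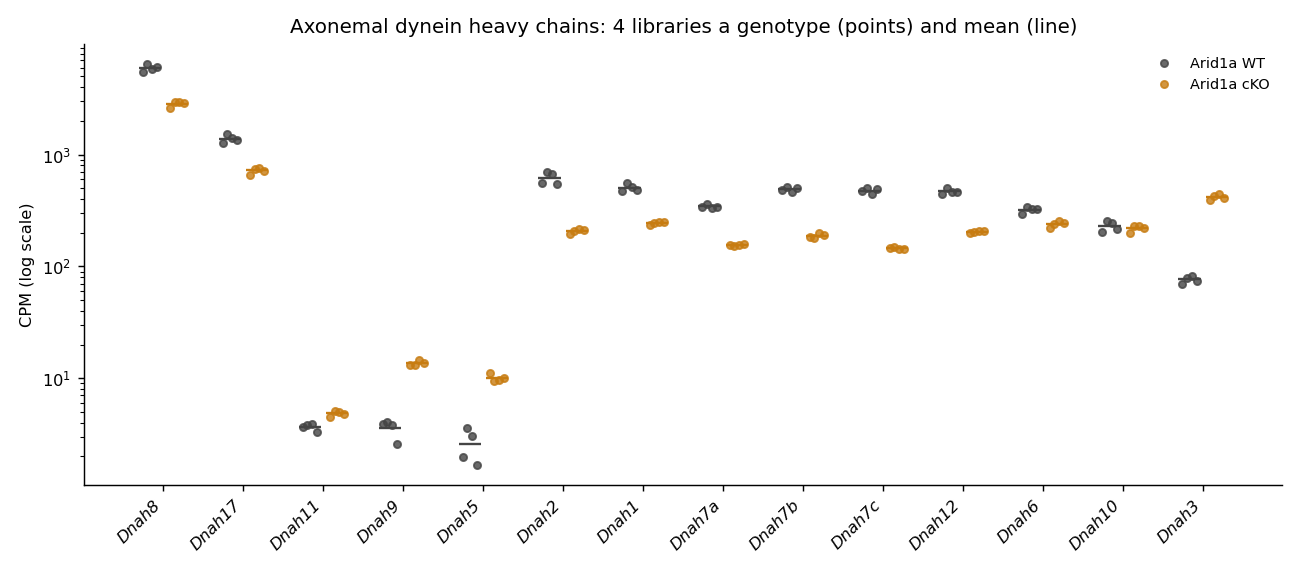
Level of the 14 dynein heavy chain genes in each library (vertical axis, CPM on a log scale), with points for libraries and lines for genotype means. *Dnah8* leads in both genotypes, *Dnah3* rises from the lowest abundant inner arm chain to 418 CPM on average, and *Dnah5*, *Dnah9* and *Dnah11* stay below 15 CPM.

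Heavy chain transcripts are long, at 2.75 to 7.52 times the length of that of the median gene. Length here was recovered from the counts and TPM of each gene. Only *Cfap54* (3.55) and *Cfap47* (3.51) among the other 56 genes were longer than *Dnah9*, the shortest heavy chain by this measure. The longest annotated transcript of *Dnah9*, at 13798 bases, is however longer than that of *Dnah3*, at 12289 bases. Over the 70 genes, length and log2 fold change had a Spearman correlation of -0.344 (-0.316 over the 56 genes that are not heavy chains, -0.11 over all genes tested), a description across genes that share the same 8 libraries. In all, 962 genes other than heavy chains were at least as long as *Dnah9* by this measure. Of these, 35.7% were lower and 36.0% were higher, with a median change of -0.02. All other heavy chains were at 3.99 or more, so the 962 genes are not matched to them in length. Length also separated the *Arid1a* WT libraries from each other. The ratio of a library to the *Arid1a* WT mean had a Spearman correlation with length over the 70 genes of -0.543 in replicate 1, 0.66 in replicate 2, 0.44 in replicate 3 and -0.473 in replicate 4. Longer genes were thus relatively high in replicates 2 and 3 and low in replicates 1 and 4. With transcript length offsets the fall of *Dnah8* was -1.40, that of *Dnah1* -1.33 and that of *Dnah7b* -1.01.

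Dynein arms are put together in the cytoplasm by assembly factors before they enter the flagellum. Among 9 such genes, 6 fell (66.7%, beside 37.5% of all genes), 2 rose (22.2%, beside 36.5%) and 1 was not called. *Dnaaf4* (chr9:72957372-72973689), which acts with the HSP90 chaperone system, fell furthest of all 70 genes. It was at 102, 87.8, 81.7 and 105 CPM in *Arid1a* WT and at 12.7, 13.8, 11.5 and 14.1 CPM in *Arid1a* cKO, a 7.24-fold lower level (log2 fold change -2.86 ± 0.09, adjusted p = 1.17e-12). Of the 31-base words of *Dnaaf4*, 93.7% also occur in overlapping gene models that were not analysed here, so its reads could belong in part to them.

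*Dnaaf1*, by contrast, was the most abundant assembly factor and was not called. Its level was 1340, 1267, 1145 and 1503 CPM in *Arid1a* WT and 1357, 1354, 1344 and 1333 CPM in *Arid1a* cKO (log2 fold change 0.04 ± 0.07, adjusted p = 0.659). The *Arid1a* cKO values lay inside the *Arid1a* WT range, and the sign of the change depended on scaling (-0.06 without TMM). *Dnaaf3* was at 71.9, 79, 79.9 and 72 CPM in *Arid1a* WT and rose to 122, 125, 126 and 116 CPM in *Arid1a* cKO (log2 fold change 0.69 ± 0.05, adjusted p = 1.69e-08). *Dnaaf2*, a PIH-domain co-chaperone, fell by 0.80 ± 0.05, or 0.45 with length offsets, and shared 71.1% of its words. Smaller falls were seen in *Cfap300* (0.61 ± 0.07), *Dnaaf5* (0.38 ± 0.05) and *Cfap298* (0.21 ± 0.06). *Cfap298* overlapped between genotypes and shares 42.9% of its words with other gene models, so its reads are uncertain, and its change was -0.13 without *Arid1a* WT replicate 4.

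A pair of related assembly factors, *Dnaaf6* and *Dnaaf6b*, moved in opposite directions. Both are named for the PIH-domain co-chaperone DNAAF6. *Dnaaf6* lies on chromosome 1 (31222839 to 31224287), where its longest transcript has a single exon, and *Dnaaf6b* lies on the X chromosome (140062879 to 140106797) with 7 exons. *Dnaaf6* was at 31.1, 28.9, 27.4 and 27.8 CPM in *Arid1a* WT and at 8.29, 5.65, 6.36 and 6.23 CPM in *Arid1a* cKO, a fall of 2.11 ± 0.10 log2 units (adjusted p = 7.19e-11). *Dnaaf6b* had 6, 7, 7 and 5 estimated counts in *Arid1a* WT and 47, 29, 48 and 24 in *Arid1a* cKO, a rise of 2.74 ± 0.27 (adjusted p = 3.56e-07). Libraries of the genotypes did not overlap for either gene. The TPM ratio of *Dnaaf6b* to *Dnaaf6* was 0.00785 to 0.0123 in *Arid1a* WT and 0.237 to 0.345 in *Arid1a* cKO. Only 5.63% of the words of *Dnaaf6* and 5.41% of those of *Dnaaf6b* are shared, so the reads of each could be told apart over most of its length.

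The bases before the annotated starts show how closely the pair is related. RefSeq windows of GRCm38.p6 hold, for *Dnaaf6* at chr1:31222719-31222838 and for *Dnaaf6b* at chrX:140062759-140062878, both on the plus strand, the 120 bases below. Capitals mark a shared run of 20 bases, which begins 118 bases before the start of *Dnaaf6* and 68 bases before that of *Dnaaf6b*. A further run found in both, gttcaacaaagttgttaccc, is not marked. It ends at the last printed base of *Dnaaf6b*, since 20 bases is the longest run that the full windows share.
Dnaaf6: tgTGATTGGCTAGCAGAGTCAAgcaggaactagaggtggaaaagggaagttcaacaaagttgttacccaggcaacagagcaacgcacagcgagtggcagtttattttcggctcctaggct
Dnaaf6b: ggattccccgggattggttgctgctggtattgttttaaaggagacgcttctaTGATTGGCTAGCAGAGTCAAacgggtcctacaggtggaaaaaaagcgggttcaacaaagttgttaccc
Over the best placed stretch of 100 bases without gaps, 81 were identical, with the annotated starts 50 bases apart. That stretch begins 179 bases before the start of *Dnaaf6* and 129 bases before that of *Dnaaf6b*, so it lies only in part within the bases printed here.

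*Cfap47*, which encodes a central apparatus protein, is the other X-linked gene of the 70. It was at 9.90, 10.3, 10.9 and 10.1 CPM in *Arid1a* WT and at 69.3, 66.9, 73.6 and 71.3 CPM in *Arid1a* cKO, the largest rise among the 70 genes (log2 fold change 2.77 ± 0.06, 6.82-fold, adjusted p = 4.93e-14). X-linked genes as a class were high in *Arid1a* cKO: 66.6% of the 799 tested were called higher, with a median log2 fold change of 1.32. Both X-linked axonemal genes lay above that median. Without them, the median of the 68 autosomal genes was -0.05.

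Among the 8 central apparatus genes, 5 fell (62.5%, beside 37.5% of all genes) and 3 rose (37.5%, near the 36.5% of all genes). *Cfap69*, whose product sits in a projection of the central pair, had the highest level at 287 ± 18 TPM. It was at 343, 331, 309 and 359 CPM in *Arid1a* WT and at 517, 492, 492 and 494 CPM in *Arid1a* cKO, a rise of 0.57 ± 0.05 (adjusted p = 1.81e-07). *Cfap46* fell most, from 242, 277, 286 and 221 CPM to 70.9, 71.5, 74.6 and 72.0 CPM (log2 fold change -1.83 ± 0.08, adjusted p = 1.87e-11). CFAP46, CFAP54, CFAP74 and CFAP221 belong to the same projection of the central apparatus, and their mRNAs did not move as one. *Cfap74* fell by 1.23 ± 0.07 and *Cfap54* by 0.89 ± 0.06, whereas *Cfap221* rose by 0.45 ± 0.07. *Cfap65* fell by 1.39 ± 0.09. *Cfap99* was called lower at -0.15 ± 0.06 (adjusted p = 0.0261) with overlapping libraries, and the call was lost when any of 5 libraries was left out (*Arid1a* WT replicate 1 or 2, *Arid1a* cKO replicate 1, 2 or 4), with adjusted p of 0.0781, 0.0783, 0.053, 0.0541 and 0.0668.

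Radial spokes carried the largest share of axonemal mRNA. Of their 9 genes, 4 rose and 4 fell (44.4% each, beside 36.5% and 37.5% of all genes). *Rsph1* (chr17:31255019-31277296), a spoke head protein, was the most abundant of the 70 genes in *Arid1a* WT, at 2170.5 ± 189 TPM. In *Arid1a* cKO it was at 1028 ± 2.97 TPM, below *Cfap206* at 1044 ± 11.6 TPM. In CPM it was at 1597, 1519, 1318 and 1763 against 818, 798, 800.3 and 802, a fall of 0.95 ± 0.07 log2 units (adjusted p = 2.60e-08). The *Arid1a* WT libraries spread widely and the *Arid1a* cKO libraries lay close together, without overlap. The stalk genes *Rsph3a* and *Rsph3b* fell as well. *Rsph3a* went from 439, 421, 376 and 491 CPM to 197, 195, 191 and 205 CPM (-1.13 ± 0.07, adjusted p = 1.73e-09), and *Rsph3b* fell by 0.69 ± 0.07. These copies on chromosome 17 share 63.0% and 77.8% of their words with other genes, chiefly with each other, so the split between them is uncertain.

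Spoke heads hold RSPH4A in airway cilia and its relative RSPH6A in sperm. *Rsph6a* was at 315, 326, 285 and 366 CPM in *Arid1a* WT and at 334, 341, 334 and 338 CPM in *Arid1a* cKO and was not called (0.06 ± 0.07, adjusted p = 0.419). It was called higher without *Arid1a* WT replicate 4 (0.14, adjusted p = 0.024) and changed sign without TMM (-0.04), with length offsets (-0.02) and on TPM (-0.11), where it was not called. *Rsph4a* was rare, at 1.63 ± 0.165 and 0.965 ± 0.222 CPM, and fell by 0.74 ± 0.21 (adjusted p = 0.00557). The TPM ratio of *Rsph4a* to *Rsph6a* was 0.00252 to 0.0034 in *Arid1a* WT and 0.00131 to 0.00223 in *Arid1a* cKO. Other spoke genes rose. *Rsph14* went from 10, 8.51, 8.88 and 11.1 CPM to 23.5, 21.3, 19.3 and 18.6 CPM (1.10 ± 0.10, adjusted p = 1.08e-07). *Cfap206* and *Cfap61*, whose products sit at the base of spokes, each rose by 0.59, with SE of 0.06 and 0.05, and the spoke head gene *Rsph9* by 0.20 ± 0.05. On TPM the rise of *Cfap61* was 0.35. The rise of *Rsph9* was not called without TMM (0.10, adjusted p = 0.0731) or on TPM (0.04, adjusted p = 0.382 and 0.395).

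Of the 3 genes of the nexin-dynein regulatory complex, 1 fell and 2 were not called. *Drc1*, a scaffold of the complex, was at 211, 192, 176 and 226 CPM in *Arid1a* WT and at 233, 219, 219 and 213 CPM in *Arid1a* cKO (0.13 ± 0.07, adjusted p = 0.098). *Drc7* was at 112 ± 8.69 and 117 ± 2.31 CPM (0.06 ± 0.06, adjusted p = 0.328). Both overlapped between genotypes, and both were called higher when *Arid1a* WT replicate 4 was left out (0.21, adjusted p = 0.0051, and 0.13, adjusted p = 0.029). *Drc1* was also called higher with edgeR's filterByExpr in place of the count minimum (0.15, adjusted p = 0.0483). On TPM, *Drc7* was called lower (-0.14, adjusted p = 0.0157 and 0.0192). *Drc3* fell, from 141, 117, 114 and 141 CPM to 78.0, 77.7, 75.3 and 75 CPM (-0.75 ± 0.07, adjusted p = 2.24e-07).

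Tektins are filament proteins of the doublet wall, and all 5 rose, beside 36.5% of all genes. *Tekt1* (chr11:72344717-72362442) was the most abundant in *Arid1a* WT at 340.2 ± 29.2 TPM. It went from 313, 269.7, 256 and 332 CPM to 542, 520.1, 514 and 503 CPM (0.83 ± 0.07, adjusted p = 1.18e-07). *Tekt2* showed the largest rise, from 171, 161, 160.5 and 189.9 CPM to 642, 663, 645 and 638 CPM (1.92 ± 0.06, adjusted p = 6.76e-13). *Tekt4* rose by 1.79 ± 0.06, *Tekt3* by 0.94 ± 0.07 and *Tekt5*, a tektin found chiefly in sperm, by 0.87 ± 0.06. No tektin overlapped between genotypes. The ratio of *Tekt2* to *Tekt1* in TPM was 0.522 to 0.598 in *Arid1a* WT and 1.11 to 1.19 in *Arid1a* cKO, so that *Tekt2* passed *Tekt1*.

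Other proteins that line the inside of the doublets moved the same way or were not called. Of 7 such genes, 5 rose (71.4%, beside 36.5% of all genes) and none fell. *Cfap45* (chr1:172521130-172545870) was at 239.6, 224, 211 and 269 CPM in *Arid1a* WT and at 451, 440.4, 456 and 432 CPM in *Arid1a* cKO (0.91 ± 0.07, adjusted p = 1.13e-08). *Cfap77* rose 6.16-fold, from 7.57, 7.64, 7.83 and 7.37 CPM to 44.8, 48.7, 49.1 and 44.7 CPM (2.62 ± 0.06, adjusted p = 8.28e-14). *Cfap126* rose by 1.33 ± 0.05, *Cfap53* by 0.51 ± 0.08 and *Cfap161* by 0.25 ± 0.07, the last with overlapping libraries and a rise of 0.14 on TPM. *Cfap52* (175 ± 21.1 and 168 ± 5.21 CPM) and *Cfap20* (123 ± 9.94 and 118 ± 4.96 CPM) were not called (both adjusted p = 0.443). *Cfap20* was called lower without TMM (-0.15, adjusted p = 0.0184) and *Cfap52* likewise (-0.16, adjusted p = 0.019). On TPM both were called lower at -0.19 (adjusted p = 0.00424 and 0.00448 for *Cfap20*, 0.0198 and 0.0196 for *Cfap52*), and *Cfap52* was also called lower without *Arid1a* WT replicate 3 (-0.13, adjusted p = 0.0397).

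**Figure D3:**
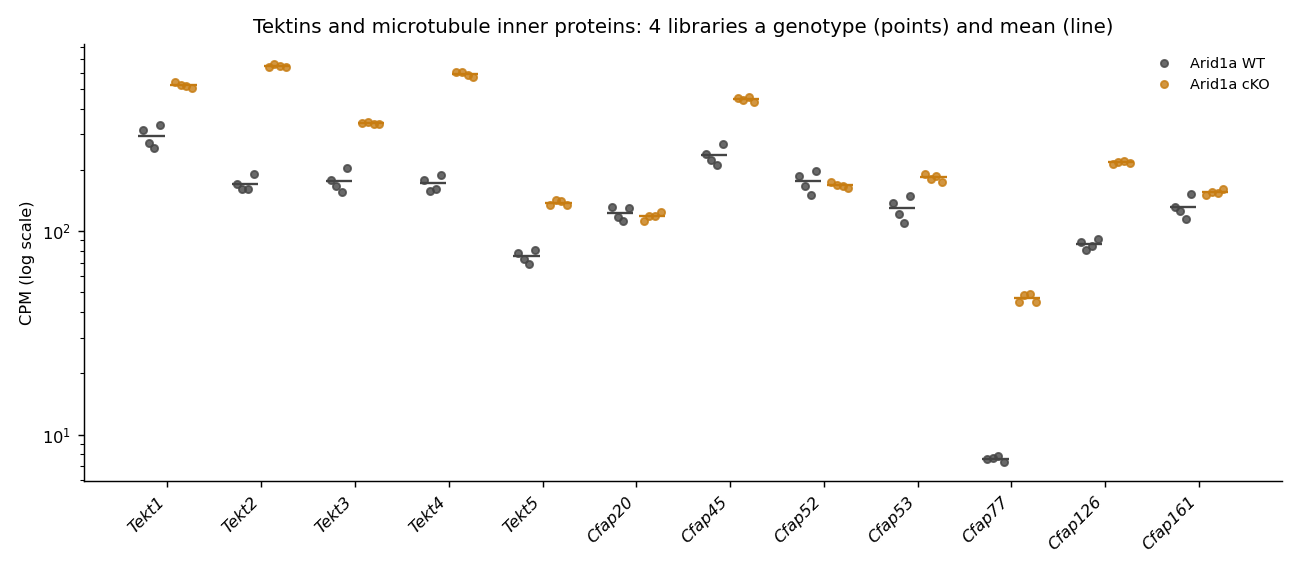
Level of the 5 tektins and 7 other microtubule inner protein genes in each library (vertical axis, CPM on a log scale), with points for libraries and lines for genotype means. All tektins sit higher in *Arid1a* cKO, *Cfap77* shows the widest gap, and *Cfap20* and *Cfap52* overlap.

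Of the 5 genes for tethers and docking proteins of inner arms, 3 rose (60%, beside 36.5% of all genes) and 2 fell (40%, near the 37.5% of all genes). *Cfap43* was the most abundant, at 481, 473, 463 and 463 CPM in *Arid1a* WT and 577, 543, 561 and 526 CPM in *Arid1a* cKO (0.23 ± 0.05, adjusted p = 4.82e-04). Its rise was 0.07 on TPM and was not called there (adjusted p = 0.191 and 0.198). *Cfap44*, whose product forms the tether of the double-headed arm together with CFAP43, was called lower at -0.18 ± 0.04 (adjusted p = 0.00257) but higher with length offsets (0.19, adjusted p = 0.00451), so its direction is not settled by these data. *Cfap73* and *Cfap100* encode partners that dock inner arms. *Cfap100* went from 19.1, 17.6, 19.3 and 16.8 CPM to 88.7, 77.6, 84.6 and 76.9 CPM (2.17 ± 0.07, adjusted p = 6.39e-13), while *Cfap73* rose by 0.44 ± 0.07. *Cfap57* fell, from 341, 297, 287 and 352 CPM to 226, 198, 206 and 194 CPM (-0.63 ± 0.07, adjusted p = 1.73e-06).

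In the last group of 10 *Cfap* genes, 5 rose (50%, beside 36.5% of all genes), 4 fell (40%, near the 37.5% of all genes) and 1 was not called. *Cfap36* had the highest level per transcript length, at 553 ± 32.9 TPM in *Arid1a* WT. In CPM it was at 569, 529, 478 and 578 CPM in *Arid1a* WT and 731, 734, 729 and 754 CPM in *Arid1a* cKO (0.45 ± 0.06, adjusted p = 8.23e-06). *Cfap58*, needed for the sperm tail, rose from 90.6, 84.1, 83.2 and 94.3 CPM to 397, 376, 389 and 356 CPM (2.11 ± 0.06, adjusted p = 1.98e-13). *Cfap157* rose by 1.49 ± 0.06 and *Cfap299* by 0.27 ± 0.07. On log2(TPM + 1) the change in *Cfap299* was 0.13 and was not called (adjusted p = 0.0504). *Cfap70* fell by 0.84 ± 0.06, *Cfap410* by 0.71 ± 0.06 and *Cfap97* by 0.28 ± 0.07. *Cfap20dc* was not called, at 20.8 ± 2.08 and 20.1 ± 1.44 CPM (adjusted p = 0.602).

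The related genes *Cfap97d1* and *Cfap97d2* went apart. *Cfap97d1*, which keeps the sperm axoneme intact, rose from 21.7 ± 0.609 to 89.7 ± 4.76 CPM (2.05 ± 0.05, adjusted p = 1.70e-13). *Cfap97d2* fell from 13.3, 10.6, 12.5 and 10.4 CPM to 5.01, 4.17, 3.54 and 3.86 CPM (-1.50 ± 0.12, adjusted p = 4.65e-08), a change that was -0.98 with length offsets. Their TPM ratio was 8.95 to 10.8 in *Arid1a* WT and 68.3 to 101 in *Arid1a* cKO.

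**Figure D4:**
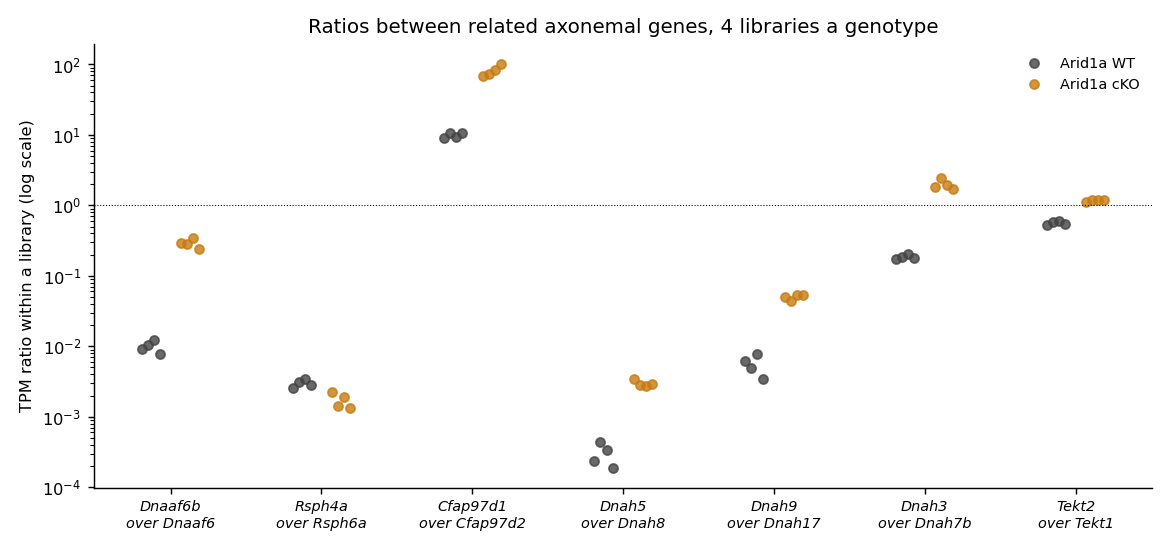
TPM ratio between related axonemal genes within each library (vertical axis, log scale; points are the 4 libraries of a genotype, dotted line at a ratio of 1). All ratios except *Rsph4a* over *Rsph6a* are higher in every *Arid1a* cKO library, and *Dnah3* over *Dnah7b* and *Tekt2* over *Tekt1* pass 1.

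The make-up of axonemal mRNA differed between genotypes. The 70 genes made up 1.58 to 1.69% of the TPM of listed genes in *Arid1a* WT and 1.33 to 1.36% in *Arid1a* cKO. Both parts of this share differed. The listed genes summed to 780735 to 811443 TPM in *Arid1a* WT and to 880901 to 886412 TPM in *Arid1a* cKO. The 70 genes summed to 12318 to 13687 TPM in *Arid1a* WT and to 11735 to 12028 TPM in *Arid1a* cKO. Within that sum, tektins went from 7.24 ± 0.235% to 18.1 ± 0.277% and the other microtubule inner proteins from 7.14 ± 0.158% to 11 ± 0.127%. Outer arm heavy chains went from 7.44 ± 0.697% to 3.04 ± 0.0949%, inner arm heavy chains from 3.86 ± 0.461% to 2.23 ± 0.0797% and radial spoke genes from 38.2 ± 1.27% to 27.4 ± 0.15%. None of these 5 shares overlapped between genotypes. Central apparatus genes did overlap, at 5.46 to 7.33% and 5.62 to 5.85%. These shares follow the most abundant genes of a role. Of the 5 outer arm genes 3 rose, but *Dnah8* went from a mean of 805 to 286 TPM. Of the 9 spoke genes 4 rose and 4 fell. Among them *Rsph1* went from 2170.5 to 1028 TPM and *Cfap206* from 748 to 1044 TPM.

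**Figure D5:**
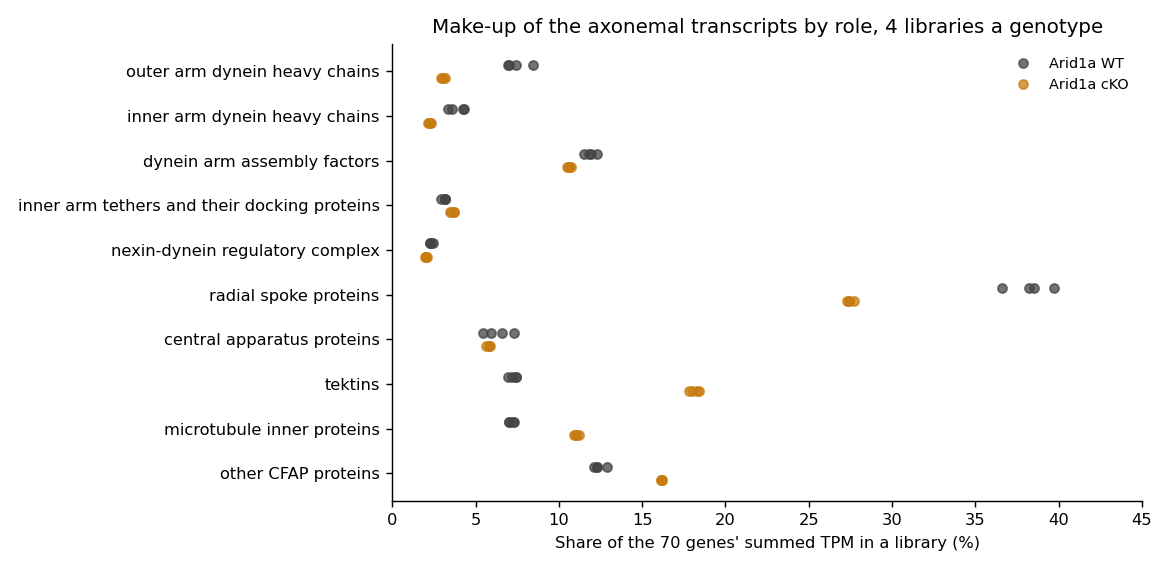
Share of the summed TPM of the 70 genes held by each role (horizontal axis, percent), with 1 point for each library. Tektins move from about 7.24% to 18.1% and radial spoke genes from 38.2% to 27.4%, while the central apparatus genes overlap.

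The rises reached the size seen in the spermatid markers in 11 of the 70 genes (15.7%), which rose by 1.79 log2 units or more, the smallest rise among the 17 markers, beside 11.5% of all genes tested. They were *Cfap47*, *Dnaaf6b*, *Cfap77*, *Dnah3*, *Cfap100*, *Cfap58*, *Cfap97d1*, *Dnah5*, *Dnah9*, *Tekt2* and *Tekt4*. The part of spermatid RNA in these rises was not tested.

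Genes of the axoneme that carry other names were counted in the same fit. Of 66 such structural genes, 36 were higher (54.5%), 20 lower (30.3%) and 10 not called, with a median of 0.27. Over all genes tested 36.5% were higher, 37.5% lower and 74.0% called, and the counts of the smaller lists that follow stand beside the same shares. In the doublet microtubule inner proteins, 10 of 11 were higher and none lower, and *Saxo1* rose by 2.25 ± 0.05. Of 10 preassembly genes, 6 fell and 3 rose, and *Zmynd10* fell by 1.73 ± 0.06. Among 17 intermediate and light chains and docking proteins of the arms, 9 rose and 6 fell, with *Ccdc63*, a docking protein of sperm, up by 2.42 ± 0.05 and *Ccdc151*, another docking protein, down at -0.67 ± 0.07. *Dnal1*, an outer arm light chain, was called lower in CPM (-0.79 ± 0.11), but its mean TPM was 32.1 in *Arid1a* WT and 39.5 in *Arid1a* cKO. The list counted with the radial spokes, which also holds *Ccdc39* and *Ccdc40*, had 7 of 10 further genes higher and 3 lower. *Ccdc39* (-1.57 ± 0.08) and *Ccdc40* (-0.86 ± 0.07) were among the 3 lower. For 9 partners of the nexin-dynein regulatory complex the count was 5 higher and 2 lower. *Efcab2* was among these 2 (-0.25 ± 0.07), but its mean TPM was 98.7 in *Arid1a* WT and 119 in *Arid1a* cKO. Of 9 further central apparatus genes, 2 rose and 3 fell. *Spag6* rose by 2.85 ± 0.06 while its copy *Spag6l* fell by 0.50 ± 0.08. Shared words were not counted for these copies, so how far reads were divided between them is not known.

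Transcription of motile cilium genes is driven by FOXJ1 and by RFX factors, and in the testis by MYBL1, CREM and SOX30. *Foxj1* rose by 2.92 ± 0.06, *Rfx1* by 2.47 ± 0.06, *Rfx3* by 1.77 ± 0.08, *Sox30* by 1.09 ± 0.05 and *Crem* by 1.08 ± 0.07. *Mybl1* fell by 1.3 ± 0.06. *Rfx2* was not called (-0.06 ± 0.05, adjusted p = 0.282). Of 12 regulators listed, 7 rose, 2 fell and 3 were not called. The others were *Tbpl1* (0.23 ± 0.07) and *Ccno* (1.08 ± 0.15), called higher, *Mcidas* (-1.76 ± 0.33), called lower, and *Rfx4* (-0.07 ± 0.04) and *Gmnc* (0.34 ± 0.28), not called. The mean TPM of *Rfx4*, however, was 71.5 in *Arid1a* WT and 115 in *Arid1a* cKO.

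The letters of their known motifs were counted in RefSeq promoter windows, which run from 250 bases before to 50 bases after a start. Windows were held for 59 of the 70 genes. The RFX half-site GTTGCC, read on both strands, was present in a window of 25 of the 59 genes (42.4%), beside 14.1% of 27025 genes with a window. By direction, it was found in 7 of 26 genes called higher (26.9%), 14 of 26 called lower (53.8%) and 4 of 7 not called (57.1%). The MYB core AACNGNC was in 54.2% of the genes, beside 36.0%, and in 53.8% of those called higher and of those called lower alike. It can overlap the reverse half-site GGCAAC, with which it may share the letters AAC. The cyclic AMP response element TGACGTCA was in 1 gene of the 59 (1.69%), beside 2.03%. A match of letters is not a site that was shown to be bound.

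A window with 2 or more half-sites was held by 8 of the 59 genes (13.6%), beside 1.17% of all genes with a window. RFX factors bind pairs of half-sites that face each other, and the genes with at least 2 half-sites in the 120 bases before a start are shown for that reason. Such a pair, GTTGCC and then GGCAAC after 1 to 3 bases, was looked for after the windows had been seen, and was found in 2 of the 59 genes (3.39%), *Cfap298* and *Cfap20dc*, beside 0.189% of all genes with a window. Capitals mark half-sites in the 120 bases before the start, each written along the strand of its gene. *Cfap298* is at chr16:90934850-90934969, *Cfap20dc* at chr14:8666291-8666410, *Cfap161* at chr7:83794840-83794959, *Tekt1* at chr11:72361883-72362002 and *Tekt2* at chr4:126325689-126325808, all on the minus strand of GRCm38.p6.
Cfap298: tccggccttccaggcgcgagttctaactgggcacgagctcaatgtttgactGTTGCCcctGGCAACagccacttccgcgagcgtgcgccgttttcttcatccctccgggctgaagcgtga
Cfap20dc: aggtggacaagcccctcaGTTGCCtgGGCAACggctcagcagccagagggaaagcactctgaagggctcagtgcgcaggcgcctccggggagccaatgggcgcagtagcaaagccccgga
Cfap161: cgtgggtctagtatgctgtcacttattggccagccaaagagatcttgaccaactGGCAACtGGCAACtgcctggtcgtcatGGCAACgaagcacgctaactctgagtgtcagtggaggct
Tekt1: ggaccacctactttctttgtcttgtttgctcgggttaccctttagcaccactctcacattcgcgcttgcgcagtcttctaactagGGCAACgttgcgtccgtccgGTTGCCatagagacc
Tekt2: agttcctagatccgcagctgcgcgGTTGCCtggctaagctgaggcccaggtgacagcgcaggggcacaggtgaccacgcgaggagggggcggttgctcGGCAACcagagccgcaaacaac
The other 3 genes with 2 half-sites in a window were *Cfap44*, *Cfap74* and *Dnah10*. Of the 8, *Tekt1*, *Tekt2* and *Cfap161* were called higher, *Cfap298*, *Cfap74* and *Cfap44* were called lower, and *Cfap20dc* and *Dnah10* were not called.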

How the data were processed

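RNA of 8 pachytene spermatocyte libraries, 4 of each genotype, was measured. The authors quantified reads with Salmon, summed transcripts to genes with tximport (mm10 annotation). The authors deposited, per gene, estimated counts and TPM. The authors' deposited list of DESeq2 fold changes and p-values was not used. Tests had been planned for raw counts, so estimated counts were rounded, and genes with at least 10 summed counts were fitted with edgeR 4.0.16 in R 4.3.3 (TMM, genotype only, glmQLFTest) and called at a Benjamini-Hochberg threshold of 0.05. Estimated counts take no account of transcript length, so CPM was used between libraries and TPM between genes. Alternatives were DESeq2 1.42.0, other scalings and filters, the replicate number as a block, recovered length offsets, limma 3.58.1 on log2(TPM + 1) and log2(TPM + 0.1), and each library left out. Symbols, coordinates (1-based) and promoter windows were from RefSeq GRCm38.p6. Words of 31 bases were compared over GENCODE M21 transcripts, which 69 of the 70 genes had. Of 71 RefSeq symbols that fit the naming rule, *Dnah14* was not analysed here.

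The genes, roles, pathway and marker lists were chosen with earlier results of these data known. Values in every library are given, in each role, for the gene with the highest TPM and for the largest rise and fall among genes called whose average log2 CPM was 1 or more, and X-linked and uncalled genes are all named. Facing half-sites and the other genes printed in full were chosen after their values were seen. The script was tested on simulated data. Figures were drawn in Python 3.11.15 with matplotlib.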

Additional observations from a re-analysis of the deposited data

Results flagged for a closer look

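Among 144 groups of 4 libraries examined (each gene, *Arid1a* and the summed TPM, in each genotype), 2 held a library whose gap to the nearest other passed Dixon's 95% limit as a share of the group's range. Chance gives such a gap in about 1 group in 20, or 7.2 of 144. *Cfap69* was at 517 CPM in *Arid1a* cKO replicate 1 and at 492 to 494 CPM in the other 3 libraries, a gap of 0.924 of the range. *Cfap410* was at 33.6 CPM in *Arid1a* WT replicate 4 and at 30.9 to 31.3 CPM in the others, a gap of 0.86 of the range. Both genes kept their call without that library.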

How the results depend on the processing

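Of the 62 called genes, 56 kept direction and call under all 17 alternatives, and 61 in every fit that left out 1 library, *Cfap99* being the exception. The counts were 27 to 34 higher and 30 to 34 lower. The median change of the 70 genes went from -0.01 to -0.10 without TMM and to -0.12 on log2(TPM + 1) and on log2(TPM + 0.1), while the median of all genes went from -0.02 to -0.12, -0.05 and -0.10. With single libraries left out it ranged from -0.03 to 0.07, the latter without *Arid1a* WT replicate 4. Sign changed in 20 of 1190 gene values, and *Cfap44* and *Drc7* were each called in both directions by some settings. *Cfap44* was at 0.19 with length offsets and 0.09 on both TPM scales. *Dnaaf1* was at -0.06 without TMM, -0.01 with length offsets and -0.10 on both TPM scales, and *Rsph6a* at -0.04, -0.02 and -0.11. *Drc7* was at -0.03, -0.04 and -0.14, the last called lower (adjusted p = 0.0157 and 0.0192) although it was called higher without *Arid1a* WT replicate 4 (0.13, adjusted p = 0.029), and *Drc1* at -0.04 on both TPM scales. With libraries left out in turn, *Cfap20dc* ranged from -0.11 to 0.03, *Cfap52* from -0.13 to 0.01 and *Dnaaf1* from -0.02 to 0.12. The cause was not tested. *Cfap99* was not called with DESeq2 (adjusted p = 0.0845) or its size factors (0.0597), nor *Cfap299* on TPM (0.0504 on log2(TPM + 1)). *Rsph6a* was called higher without *Arid1a* WT replicate 4 (0.14, adjusted p = 0.024). On log2(TPM + 1), *Dnaaf6b* was at 1.15, *Dnah5* at 0.58, *Rsph4a* at -0.30 and *Cfap97d2* at -0.87. An added 1 shrinks changes of rare genes. *Cfap97d2*, at -1.50 in the main fit, was however also at -1.06 on log2(TPM + 0.1) and at -0.98 with length offsets. Same-numbered libraries share only a number, and their deviations from the genotype means correlated at 0.202, 0.042, 0.0944 and -0.0917. With the replicate block, 31 genes were higher and 31 lower, all 70 kept direction and call, and the median was 0.00. Pairs of libraries differed by more than counting noise (chi-square per degree of freedom 1.71 to 18). Depth limits *Dnaaf6b* and *Rsph4a*, which had under 50 counts in every library.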
